A study of Arabidopsis thaliana with 64 samples.

Results

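The comparison described here is that of 27 °C with 22 °C in Arabidopsis thaliana seedlings of the lines BdELF3-ox and StELF3-ox, which overexpress the ELF3 protein of the grass Brachypodium and of potato. It rests on 5 of the 38 RNA libraries among 64 samples. BdELF3-ox had 1 library at 22 °C and replicates 1 and 3 at 27 °C, and StELF3-ox had 1 library at each temperature. The libraries were chosen by genotype and temperature, except that BdELF3-ox 27C replicate 2 was left out because it is low in root transcripts, and the effect of adding it back is given near the end.

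Both lines are labelled with the cultivar Col-0, and whether they also lack a working native ELF3 gene is not given in the labels. The promoter of the transgenes, the number of insertion lines and the harvest time of day are not given either. Seeds germinated at 22 °C on agar plates, which then stood at 12, 22 or 27 °C for 10 days in short days (light for 8 h, dark for 16 h). Each library came from 70 mg of pooled whole seedlings. The lines set beside them were Col-0, the wild type, with 1 library at 22 °C and 2 at 27 °C, and ELF3-ox, which overexpresses the Arabidopsis protein, with 1 library at each temperature. The labels do not say that libraries of a group came from separate cultures, so every p-value measures only the spread between these libraries.

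ELF3 is a clock protein that joins ELF4 and the DNA-binding protein LUX in the evening complex (EC), which represses growth and clock genes at night. Warmth weakens this repression in Arabidopsis. The transcription factors PIF4 and PIF5 are among the repressed genes and drive auxin production and elongation of the hypocotyl when they are released. A polyglutamine stretch lies in a prion-like domain of Arabidopsis ELF3 that has been linked to its response to warmth, and the Brachypodium protein is known to lack a recognisable domain of this kind. The lines therefore ask how seedlings respond to warmth when ELF3 of another species is expressed.

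The 5 libraries held 8453289 to 16800245 gene counts each. The 18 root markers summed to 525 CPM (counts scaled to a common library size) in BdELF3-ox 22C, 460 and 491 in BdELF3-ox 27C replicates 1 and 3, 470 in StELF3-ox 22C and 448 in StELF3-ox 27C. They summed to 75.7 in the library left out, where 7 of the 18 were at 0. The 12 seed storage markers summed to 5.50 to 10.7 CPM and the 8 floral organ markers to 6.45 to 19.3 CPM in the 5 libraries. In pooled seedlings, fewer cells of a type and less RNA per cell cannot be told apart. BdELF3-ox 27C replicate 3 differed from the other 4 libraries in the number prefix of its sample title, and what that prefix stands for is not given. Across 18266 loci, its log2 CPM minus that of replicate 1 correlated at r = 0.58 with the same difference between the 2 Col-0 27C libraries, which carry the same pair of prefixes. The ELF3-ox libraries share another prefix, and replicate numbers only name the libraries. The points of that correlation are loci, which are not independent replicates.

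The 3' tags of the native ELF3 locus were at 13.1 CPM in BdELF3-ox 22C, 12.6 and 11.6 CPM in its 27 °C replicates 1 and 3, and 15.3 and 15.4 CPM in StELF3-ox at 22 and 27 °C. They were at 29.0 CPM in Col-0 22C, 21.03 and 16.6 CPM in Col-0 27C, and 36.4 and 34.05 CPM in ELF3-ox. Each of the 5 libraries was thus below each Col-0 and ELF3-ox library at this locus. A transgene from another species with its own 3' end is not counted there, so these values do not check the overexpression. The warmth change at the locus was -0.06 ± 0.23 (log2, SE, 3 libraries at 27 °C against 2 at 22 °C, adjusted p = 0.943 by edgeR's quasi-likelihood test). ELF4, the second subunit of the complex, was at 51.9 CPM in BdELF3-ox 22C, 48.0 and 47.9 CPM at 27 °C, and 61.0 and 61.5 CPM in StELF3-ox. Its change was -0.06 ± 0.22 (adjusted p = 0.941, edgeR), within the spread between libraries.

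Warmth changed 23 loci in the 2 lines together, 17 higher and 6 lower. The test was edgeR's quasi-likelihood test with a term for the line, at a Benjamini-Hochberg adjusted p under 0.05. These calls are 0.0931% higher and 0.0328% lower of 18266 loci tested, and the median log2 change of all of them was 0.01. For each locus, the smallest of its 3 changes (each 27 °C library minus the 22 °C library of its own line) was taken as its consistency. The 2 BdELF3-ox changes share 1 library at 22 °C. All 3 changes pointed up at 4287 of the 18266 loci and down at 4220. Counts of list members that moved 1 way in all 3 changes are to be read beside these. They were at least 2-fold in all 3 at 121 loci upward (0.662%) and 69 downward (0.378%), and each of the 23 called loci was among these. At each of the 23, the 27 °C libraries did not overlap the 22 °C libraries, and the same held at 3139 of all tested loci upward (17.2%) and 3075 downward (16.8%).

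The number of calls depended on which libraries entered. Without BdELF3-ox 27C replicate 3 the remaining 4 libraries shared 1 title prefix. That fit called 921 higher (5.09%) and 818 lower (4.52%) of 18088 loci, among them all 23. Its common dispersion, the squared variation between libraries beyond counting error, was 0.0166 against 0.0488 with 5 libraries. With 1 library per line and temperature, its spread is the spread between the 2 lines' warmth changes. Without BdELF3-ox 27C replicate 1 the fit called 397 higher and 359 lower, again including all 23. Without StELF3-ox 22C it called 25 and 32, without StELF3-ox 27C 22 and 34, and without BdELF3-ox 22C 10 and 5. These kept 13, 14 and 6 of the 23. PAP17, RTFL21, LHCB1.1, PDF2.1 and COR15B were called in each of these 5 fits. Because so few loci passed with 5 libraries, gene groups are described below by both the 5-library and the 4-library fit. Members named only from the 4-library fit were chosen after their values were seen. Of 61 list genes called with 4 libraries and not with 5, 13 did not keep 1 direction over all 3 changes.

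**Figure D1:**
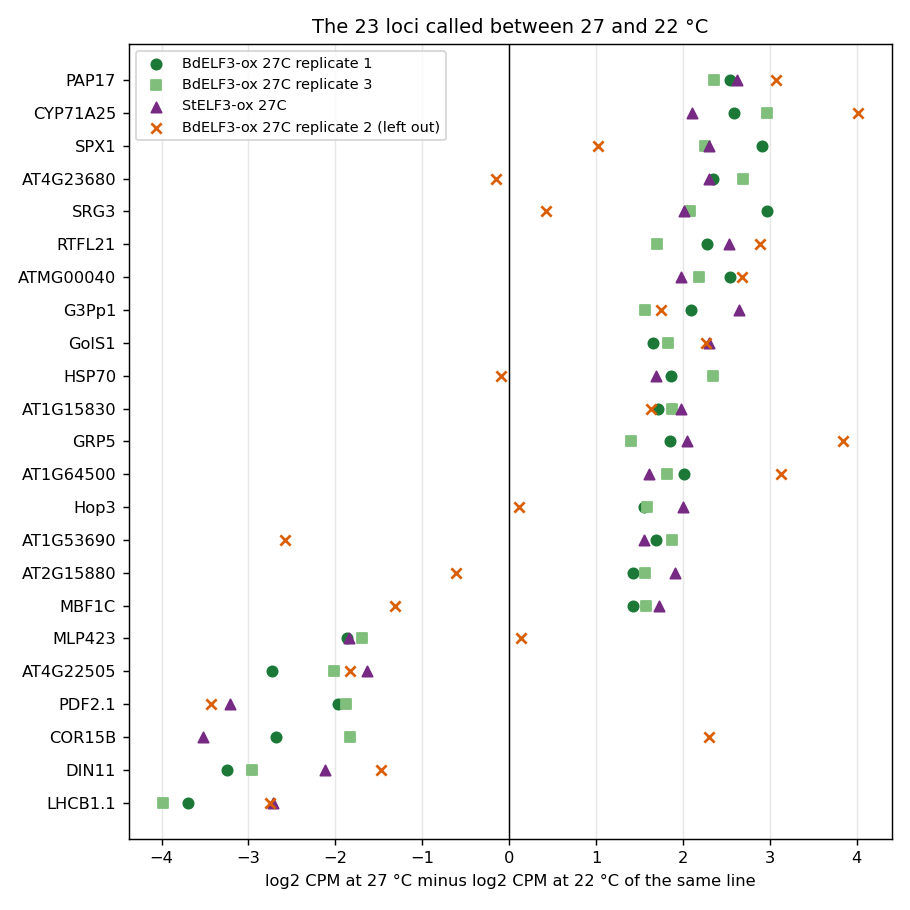
Log2 CPM at 27 °C minus log2 CPM at 22 °C of the same line (x axis) for the 23 called loci (y axis), 1 point per 27 °C library. The 3 libraries used lie on 1 side of 0 at each locus, while the library left out, drawn as crosses, lies on the opposite side at 7 of the 23.

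The locus of highest consistency was PAP17, which encodes a purple acid phosphatase that releases phosphate from organic compounds. PAP17 was at 1.03 CPM in BdELF3-ox 22C and 6.84 and 5.99 CPM at 27 °C, and at 2.02 and 13.3 CPM in StELF3-ox at 22 and 27 °C. Each 27 °C value was above both 22 °C values, and the change was 6.35-fold (log2 2.67 ± 0.33, SE, adjusted p = 0.0462, edgeR). SPX1, a phosphate sensor that restrains the phosphate starvation response, was at 5.16 CPM in BdELF3-ox 22C and 40.01 and 25.2 CPM at 27 °C, and at 5.39 and 27.2 CPM in StELF3-ox. The lines stood at almost the same level at 22 °C, and SPX1 rose 5.68-fold (log2 2.51 ± 0.31, adjusted p = 0.0462, edgeR).

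A further pair of called genes is known from phosphate starvation. SRG3, also named GDPD1, a glycerophosphodiester phosphodiesterase that takes phosphate from lipid breakdown products, was at 23.3, 184 and 98.9 CPM in BdELF3-ox at 22 °C and in replicates 1 and 3 at 27 °C. In StELF3-ox it was at 20.3 and 82.5 CPM, and the joint change was 5.08-fold. G3Pp1, a glycerol-3-phosphate permease, was at 4.82, 21.2 and 14.6 CPM in BdELF3-ox and 3.46 and 22.6 CPM in StELF3-ox, a 4.71-fold rise. These 4 genes were among the 12 called loci of highest consistency with a mean of at least 5 CPM. A set of 25 phosphate genes drawn up after these values were seen had 19 tested members. The 4 were the only ones called in either fit, and the median log2 change of the 19 was 0.55, so most of the set was not called. All 3 changes were up in 9 of the 19 and down in 3, beside 4287 up and 4220 down of all 18266 loci. The 9 include the 4 called genes that led to the set, and so does the median. Neither value is therefore separate support for a shift of phosphate genes. PHT1;1, a phosphate transporter gene, was at a log2 change of 0.86 ± 0.40 and SPX2, a relative of SPX1, at 0.81 ± 0.29, both up in all 3. SQD2, a sulfolipid synthase induced by phosphate shortage, was at a log2 change of 0.13 ± 0.25, and PHT1;4 at 0.12 ± 0.25.

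In the heat shock list 3 genes rose. HSP70 (AT3G12580), a cytosolic chaperone, was at 25.1 CPM in BdELF3-ox 22C and 91.8 and 128 CPM at 27 °C, and at 25.5 and 82.5 CPM in StELF3-ox. The 22 °C libraries lay within 1 CPM of each other and the change was 3.83-fold (log2 1.94 ± 0.27, adjusted p = 0.0462, edgeR). Hop3, which links Hsp70 to Hsp90, was at 14.4, 42.7 and 43.6 CPM in BdELF3-ox and 7.12 and 29.0 CPM in StELF3-ox, a 3.39-fold rise. MBF1C, a transcriptional coactivator of the heat response, was at 11.8, 32.1 and 35.6 CPM in BdELF3-ox and 11.1 and 36.9 CPM in StELF3-ox, a 3.06-fold rise. Of the 26 tested members of the list, 3 were called higher and 0 lower with 5 libraries, and 17 moved up and 2 down in all 3 changes. The median log2 change of the list was 0.68.

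With 4 libraries the heat shock list had 10 of 25 tested members called higher and 1 lower, against 5.09% and 4.52% of all loci. Besides the 3 above these included HSP90-1, a chaperone at 6.76, 23.4 and 12.6 CPM in BdELF3-ox and 8.18 and 26.3 CPM in StELF3-ox, and HSP101, the disaggregase needed for heat tolerance. The locus AT5G51440 was at 3.78, 17.3 and 23.49 CPM and at 4.81 and 12.3 CPM, just outside the threshold with 5 libraries (adjusted p = 0.0996, edgeR). The 1 called lower was AT1G53540, at 35.9, 6.05 and 14.7 CPM in BdELF3-ox but 1.44 and 2.99 CPM in StELF3-ox, so the lines moved in opposite directions. The constitutive HSP90-2 and HSP90-3 were at log2 changes of -0.03 and -0.12, not called. In the list of 14 chaperones of the endoplasmic reticulum, 0 were called in either fit and the median log2 change was -0.07.

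The other loci among the 12 of highest consistency have mixed roles. GolS1, a galactinol synthase that opens the route to raffinose sugars, was at 7.22, 23.2 and 26.2 CPM in BdELF3-ox and 4.23 and 21.5 CPM in StELF3-ox (4.02-fold). CYP71A25, a cytochrome P450, was at 1.15, 7.73 and 10.1 CPM and at 1.83 and 8.43 CPM (5.93-fold). RTFL21, a small peptide of the ROTUNDIFOLIA-like family, was at 4.59, 23.0 and 15.3 CPM and at 6.06 and 35.9 CPM (4.88-fold). All 3 showed no overlap between temperatures, and the lines were within 2-fold of each other at 22 °C.

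The loci AT4G23680, ATMG00040, AT1G15830 and AT1G64500 complete the 12 and carry no symbol in the gene table used. AT4G23680 was at 37.3 CPM in BdELF3-ox 22C and 191 and 241 CPM at 27 °C, and at 46.2 and 229 CPM in StELF3-ox (5.399-fold, adjusted p = 0.0302, edgeR). AT1G64500 was at 19.03, 77.3 and 67.4 CPM and at 21.4 and 65.7 CPM (3.46-fold). ATMG00040 and AT1G15830 rose 4.83-fold and 3.71-fold. The 3 called loci outside these 12 and the heat genes were GRP5, AT2G15880 and AT1G53690, which rose 3.52-fold, 3.19-fold and 3.28-fold and are named because so few remained. GRP5, a glycine-rich protein, was at 259, 938 and 688 CPM in BdELF3-ox and 376 and 1553 CPM in StELF3-ox. Of the 23 called loci, 8, among them AT1G15830, PAP17, SRG3 and GolS1, overlap another annotated gene. Whether counting used the strand is not given, so reads of such neighbours may be mixed.

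The largest fall was that of LHCB1.1, a light-harvesting chlorophyll protein of photosystem II. LHCB1.1 was at 11804 CPM in BdELF3-ox 22C and 913 and 748 CPM at 27 °C, and at 2580 and 391 CPM in StELF3-ox. The 3 warm libraries lay below both at 22 °C, although the 22 °C libraries themselves differed several-fold, and the change was 10.4-fold lower (log2 -3.37 ± 0.31, adjusted p = 0.0152, edgeR). Its near-identical neighbours were not called. LHCB1.2 was at 7407, 5355 and 7027 CPM in BdELF3-ox and 4185 and 2645 CPM in StELF3-ox (log2 -0.44 ± 0.27, adjusted p = 0.597, edgeR). LHCB1.3 was at a log2 change of -0.09 ± 0.31. Reads that did not align uniquely stayed out of all totals, so each value rests on the reads placed at 1 copy and is uncertain. Of the 20 tested members of the light harvesting list, 0 were called higher and 1 lower, and the median log2 change was -0.11. With 4 libraries 2 were called lower, against 4.52% of all loci. They were LHCB1.1 and the Rubisco small subunit gene RBCS3B, which in BdELF3-ox 27C replicate 3 was above its 22 °C library.

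COR15B, a chloroplast protein that protects membranes in the cold, was at 21.8, 3.25 and 5.99 CPM in BdELF3-ox and 29.7 and 2.44 CPM in StELF3-ox. It fell by 2.74 on the log2 scale (SE 0.37, adjusted p = 0.0462, edgeR), and its neighbour COR15A was at 12.5, 2.58 and 5.57 CPM and at 15.6 and 2.00 CPM (adjusted p = 0.130, edgeR). At 12 °C COR15B was at 709 CPM in BdELF3-ox and 1015 CPM in StELF3-ox, so the 22 °C libraries lay between those of the other temperatures. The 12 tested members of the cold response list had 0 called higher and 1 lower with 5 libraries, with a median log2 change of -0.47. With 4 libraries 1 was called higher and 7 lower, against 5.09% and 4.52% of all loci. RD29A, a gene of drought and cold, was among the 7, at 22.8, 5.04 and 7.07 CPM and at 12.7 and 8.09 CPM.

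The remaining called falls were small in level. PDF2.1, a plant defensin, was at 12.4, 3.03 and 3.24 CPM in BdELF3-ox and 9.62 and 0.887 CPM in StELF3-ox. MLP423, of the major latex protein family, was at 28.5, 7.73 and 8.69 CPM and at 26.8 and 7.32 CPM, nearly the same in both lines, and fell by 1.83 on the log2 scale. The locus AT4G22505 was at 15.8, 2.24 and 3.78 CPM and at 9.62 and 2.99 CPM. DIN11, an enzyme gene named for its induction in the dark, was at 6.76, 0.560 and 0.719 CPM and at 4.43 and 0.887 CPM. DIN11 went against its list: of 14 tested dark and sugar starvation genes it was the 1 called lower, 0 were called higher, and the median log2 change was 0.31. With 4 libraries 5 of that list were called higher, against 5.09% of all loci. They include the beta-glucosidase gene DIN2 and the raffinose synthase family gene DIN10. Of these 5, DIN2, DIN3, DIN10 and DYL1 were below their 22 °C level in BdELF3-ox 27C replicate 3, the library that fit leaves out.

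**Figure D2:**
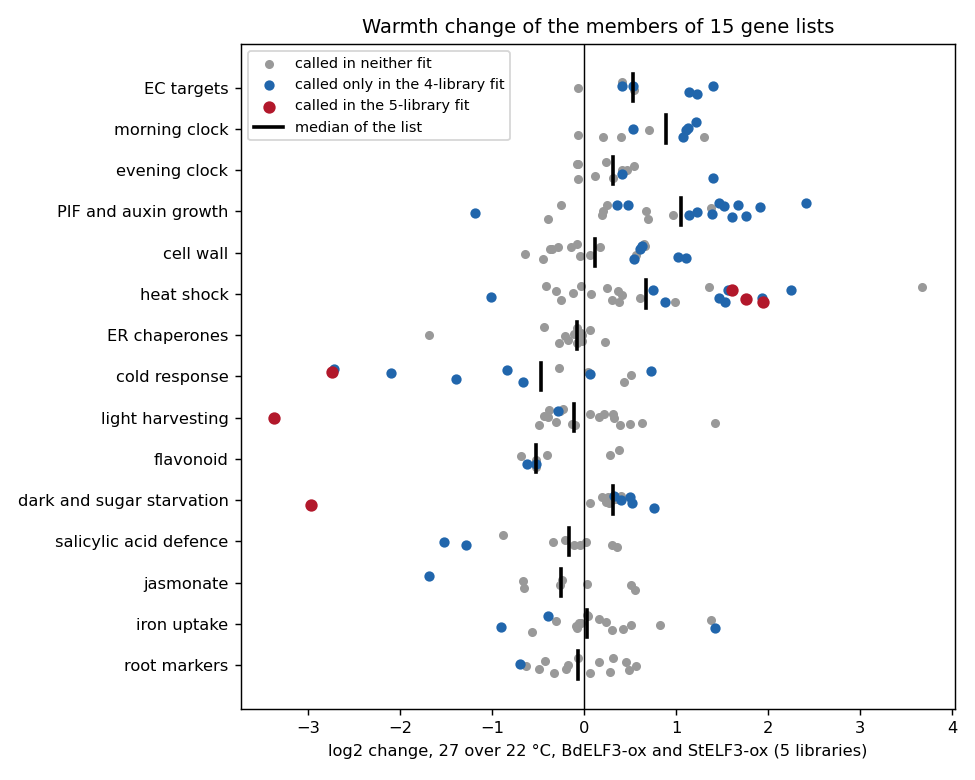
Log2 change between 27 and 22 °C in the 5-library fit (x axis) for each tested member of 15 gene lists (y axis). Red points passed the test with 5 libraries, blue points only in the 4-library fit. Black bars are list medians, which among these 15 lie highest for PIF and auxin growth (1.05) and lowest for flavonoid genes (-0.52). Seed storage markers (4 tested) and floral organ genes (2 tested), not drawn, had medians of 1.215 and 1.085.

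None of the 8 tested EC targets was called with 5 libraries. PIF4, which promotes elongation in warmth, was at 7.34 CPM in BdELF3-ox 22C and 12.1 and 21.3 CPM at 27 °C, and at 5.58 and 13.5 CPM in StELF3-ox. The groups did not overlap, at a log2 change of 1.23 ± 0.31 (adjusted p = 0.256, edgeR). PIF5, its close relative, was at 13.5, 21.3 and 20.0 CPM and at 10.1 and 36.8 CPM, again without overlap (log2 1.13 ± 0.31, adjusted p = 0.268, edgeR). In the 4-library fit both were called, at log2 changes of 1.00 and 1.27 (adjusted p = 0.00221 and 4.42e-06, edgeR).

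The clock genes among the EC targets were less even. GI, a clock protein that also acts in flowering, was at 0.803, 1.57 and 1.80 CPM in BdELF3-ox and 1.73 and 5.43 CPM in StELF3-ox, so its groups overlapped. PRR7, a morning clock repressor, was at 6.65, 6.16 and 4.85 CPM in BdELF3-ox, where both warm values were below the 22 °C value, and at 6.74 and 19.6 CPM in StELF3-ox, where the warm value was above it. LUX, the DNA-binding subunit of the complex, was at 23.2, 36.5 and 42.9 CPM in BdELF3-ox and 57.7 and 69.0 CPM in StELF3-ox, so that both StELF3-ox libraries were above all 3 of BdELF3-ox.

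BOA, a relative of LUX, was at 24.4, 41.7 and 22.5 CPM in BdELF3-ox and 55.9 and 76.5 CPM in StELF3-ox. TOC1, an evening repressor of the clock, was at 21.6, 29.2 and 23.0 CPM and at 21.8 and 33.3 CPM. PRR9 was at 0 in all 5 libraries, and LNK1, at 0.115 to 0.665 CPM, was too low to be tested. With 4 libraries 5 EC targets were called higher, PIF5, PIF4, GI, BOA and PRR7, and 0 lower, against 5.09% and 4.52% of all loci. The median log2 change of the 8 was 0.54 with 5 libraries and 0.71 with 4. Levels of these genes swing over the day, and since the harvest times are not given, a difference in harvest time between libraries was not tested.

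**Figure D3:**
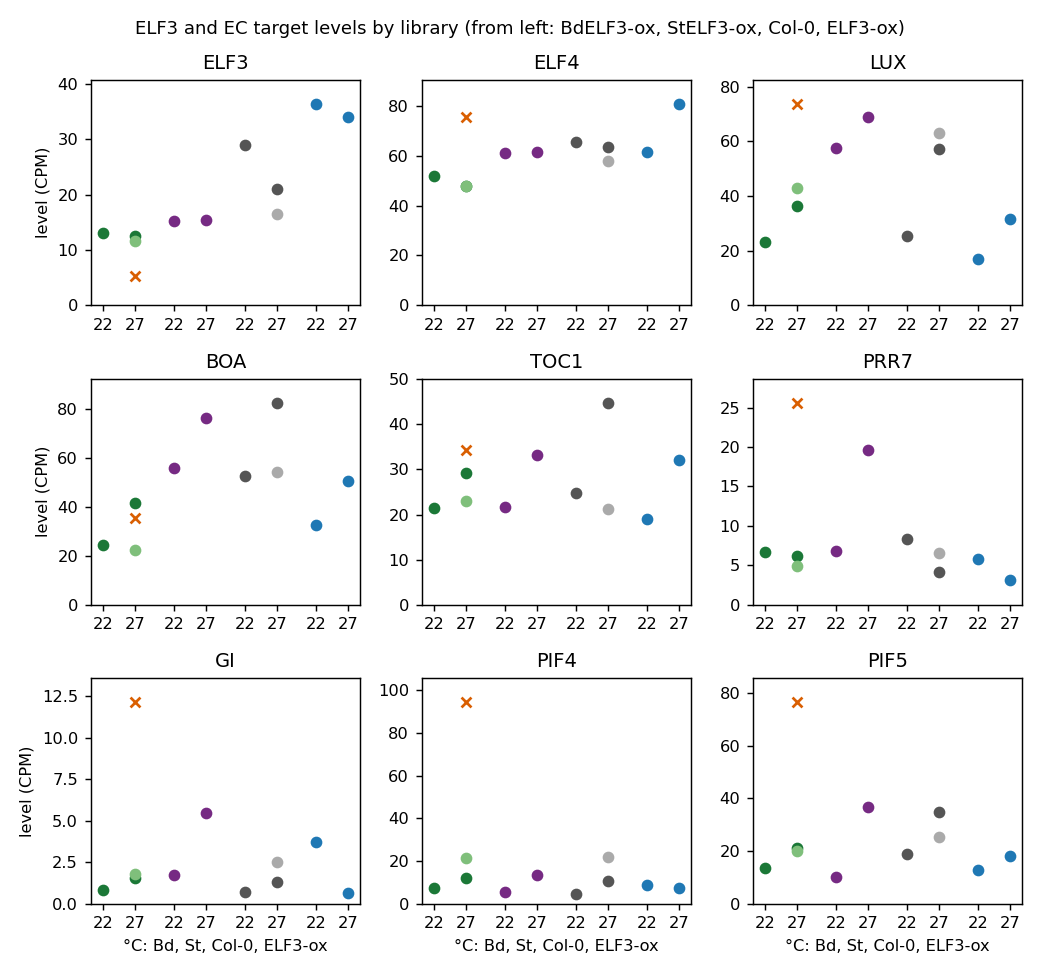
Levels (y axis, CPM) of ELF3 and 8 EC targets at 22 and 27 °C (x axis) in, from left to right, BdELF3-ox (green), StELF3-ox (purple), Col-0 (grey) and ELF3-ox (blue), 1 point per library, with the library left out as an orange cross. PRR7 is at 19.6 CPM in StELF3-ox 27C, at 6.16 and 4.85 CPM in BdELF3-ox 27C replicates 1 and 3, and at 25.6 CPM in the library left out. ELF3 tags are lower in both lines than in Col-0 and ELF3-ox.

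In the lists of other clock genes, 0 of 10 tested morning clock genes and 0 of 11 evening clock genes were called with 5 libraries, with median log2 changes of 0.89 and 0.31. With 4 libraries 5 morning genes and 2 evening genes were called higher, and 0 lower, against 5.09% and 4.52% of all loci. RVE4, an activator of evening genes, was at 40.8, 63.2 and 115 CPM in BdELF3-ox and 41.5 and 83.04 CPM in StELF3-ox. RVE2 was at 6.88, 23.0 and 14.9 CPM and at 18.6 and 30.8 CPM. Both moved up in all 3 changes. The central morning gene LHY was at a log2 change of 0.20, and CCA1 was too low to be tested.

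Genes of the PIF and auxin pathway had the highest list median among those in the plot of list members, 1.05 over 22 tested members, with 0 called in the 5-library fit. All 3 changes were up in 14 members and down in 2, beside 4287 up and 4220 down of all 18266 loci. With 4 libraries 12 of 21 were called higher and 1 lower, against 5.09% and 4.52% of all loci. IAA29, an auxin-responsive gene bound by PIF4, was at 2.87, 5.94 and 8.57 CPM in BdELF3-ox and 3.75 and 12.3 CPM in StELF3-ox (log2 1.52 ± 0.31, adjusted p = 0.153, edgeR). SAUR22, a small auxin-induced gene of elongating hypocotyls, was at 1.26, 7.96 and 2.82 CPM and at 2.21 and 7.76 CPM. TAA1, which opens the main route of auxin synthesis, was the 1 called lower, at 10.5, 4.93 and 3.48 CPM and 13.1 and 6.65 CPM.

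Cell wall genes of expansion had a median log2 change of 0.12 over 18 members, near that of all loci, with 0 called in the 5-library fit. Against 5.09% and 4.52% of all loci with 4 libraries, 5 of these genes were called higher and 0 lower. They include EXPA8, an expansin that loosens walls, at 17.1, 27.6 and 25.2 CPM in BdELF3-ox and 12.0 and 35.6 CPM in StELF3-ox. Among 10 tested gibberellin genes 0 were called in either fit, with a median of -0.00.

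The flavonoid, jasmonate and salicylic acid lists had 0 calls in the 5-library fit. Their calls with 4 libraries are to be read beside the 4.52% of all loci called lower there. The 8 tested flavonoid genes had a median log2 change of -0.52, with 6 down and 0 up in all 3 changes, and F3H and FLS1, enzymes of flavonol synthesis, were called lower with 4 libraries. Among 8 jasmonate genes 0 were called with 5 libraries. LOX2, an early enzyme of jasmonate synthesis, was called lower with 4, and stood at 36.2, 7.17 and 12.3 CPM in BdELF3-ox and 31.4 and 11.8 CPM in StELF3-ox. Of 10 salicylic acid defence genes 0 were called with 5 libraries and 2, CBP60G and PR5, were called lower with 4.

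Other lists showed few calls, to be read beside the 5.09% of all loci called higher and 4.52% called lower with 4 libraries. Among 18 iron uptake genes 0 were called with 5 libraries. With 4 libraries 1 was called higher, the iron regulator BHLH39, and 2 lower. In the light signalling list 0 of 12 were called with 5 libraries and 2 higher with 4, and in the flowering list 0 of 13 and then 1 higher, SVP, a floral repressor. The 15 tested root markers had 0 called with 5 libraries, a median log2 change of -0.06 and, with 4 libraries, 1 lower, the root hair gene COBL9. Of the 2 tested floral organ genes, PI and SEP3, 0 were called with 5 libraries and both were higher with 4. The seed storage and xylem lists had 0 calls in either fit. Of 4 guard cell markers, 0 were called with 5 libraries and MYB60 was lower with 4.

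Adding back BdELF3-ox 27C replicate 2 ended every call. The fit of 6 libraries called 0 of 18445 loci by edgeR's quasi-likelihood test, with 783 at an unadjusted p under 0.05 against 1968 in the 5-library fit. The common dispersion rose from 0.0488 to 0.136. Across loci, log2 CPM of replicate 2 correlated with replicates 1 and 3 at r = 0.855 and 0.858, and those 2 with each other at 0.959. Replicate 2 moved in the called direction at 16 of the 23 loci and against it at 7. Its changes were taken from the cooler BdELF3-ox library, which also took part in calling the 23. Some agreement is thus built in, and the share over all tested loci is not given.

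The 7 exceptions were HSP70, MBF1C, COR15B, MLP423, AT4G23680, AT1G53690 and AT2G15880. HSP70 was at 23.57 CPM in replicate 2, like the 25.1 CPM of BdELF3-ox 22C, and MBF1C at 4.65 CPM was below it. Hop3, at 15.6 CPM, was close to the 14.4 CPM at 22 °C. The whole heat shock list summed to 276 CPM in replicate 2 and to 406 to 677 CPM in the 5 libraries. COR15B was at 108 CPM, above the 21.8 CPM at 22 °C, and COR15A at 276 CPM. PAP17, CYP71A25, GolS1, RTFL21 and G3Pp1 were at 9.96, 21.1, 35.4, 35.0 and 16.6 CPM, each above its 22 °C library.

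Of the 8 tested EC targets, 7 were higher in replicate 2 than in each library kept, BOA being the exception. The same held at 25.3% of all tested loci, and 33.3% were lower in replicate 2 than in each library kept. PIF4 was at 94.3 CPM and PIF5 at 76.5 CPM, against at most 21.3 and 36.8 CPM in the 5 libraries. GI was at 12.1 CPM and PRR7 at 25.6 CPM. With this library the log2 change of PIF4 was 2.02 in place of 1.23, and that of PIF5 1.67 in place of 1.13, neither called. The 10 jasmonate genes summed to 1339 CPM against 206 to 285 CPM, with LOX2 alone at 360 CPM, and the salicylic acid list to 215 CPM against 75.8 to 83.6 CPM. The aquaporin gene TIP2;3, a root marker, was at 0.996 CPM against 178 to 276 CPM. The part of root content in these values was not tested.

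**Figure D4:**
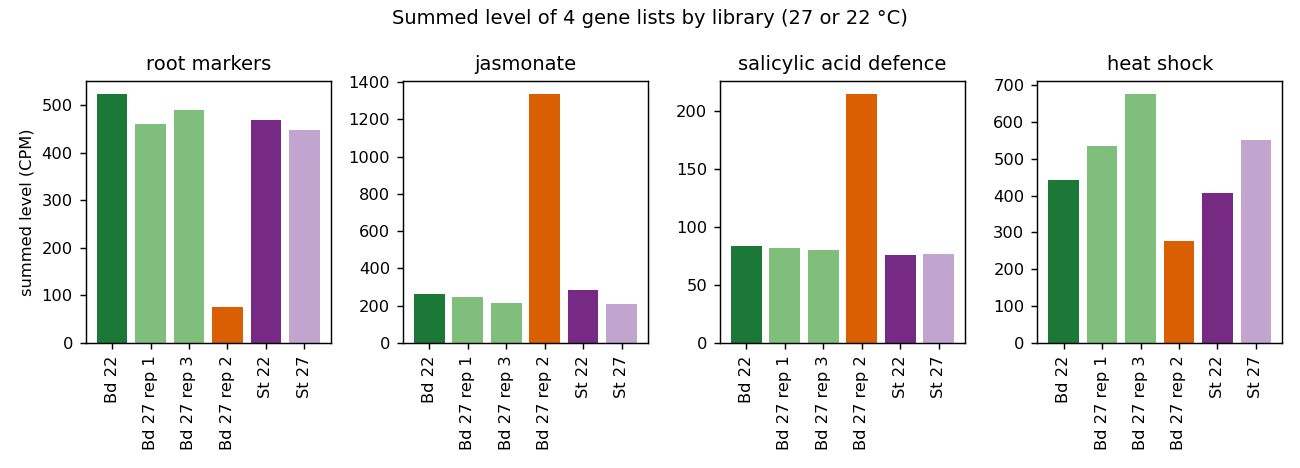
Summed level (y axis, CPM) of the root marker, jasmonate, salicylic acid defence and heat shock lists in the 5 libraries and in BdELF3-ox 27C replicate 2 (orange). Replicate 2 is at 75.7 CPM for root markers against 448 to 525 CPM, and at 1339 CPM for jasmonate genes against 206 to 285 CPM.

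The warmth response of the 2 lines was compared with that of Col-0 and ELF3-ox by the interaction of line pair and temperature in 10 libraries. By edgeR's quasi-likelihood test 0 (0%) of 18376 loci differed. An unadjusted p under 0.05 was found at 249, which is a share of all tested loci below 0.05. With a term for the title prefix 838 had such a p and 0 were called. The common dispersion was then 0.027 in place of 0.0581. Having 0 calls thus does not show that the pairs of lines responded alike. DESeq2, without that term, called 1, named below. All 23 loci called in BdELF3-ox and StELF3-ox moved the same way in both Col-0 27C libraries and in ELF3-ox 27C, against 31.4% of all tested loci and 73.2% of the 190 loci changed at least 2-fold in all 3 differences. The 2 Col-0 changes share their 22 °C library. The direction of these 23 was thus shared by libraries that took no part in calling them.

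The sizes are given side by side. LHCB1.1 was at 5144 CPM in Col-0 22C, 297 and 847 CPM in Col-0 27C, and 9176 and 489 CPM in ELF3-ox at 22 and 27 °C, and the difference in response was 0.25 (log2, 95% interval -1.18 to 1.67). SPX1 was at 6.06 CPM in Col-0 22C and 19.03 and 18.1 CPM at 27 °C, and at 6.29 and 22.6 CPM in ELF3-ox, with a difference of 0.77 (interval -0.07 to 1.61). HSP70 was at 30.6, 85.6 and 82.8 CPM in Col-0 but at 79.9 and 116 CPM in ELF3-ox, and its difference was 0.87 (interval -0.01 to 1.75). Each of these intervals includes a 2-fold difference, which these libraries can neither show nor set aside.

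**Figure D5:**
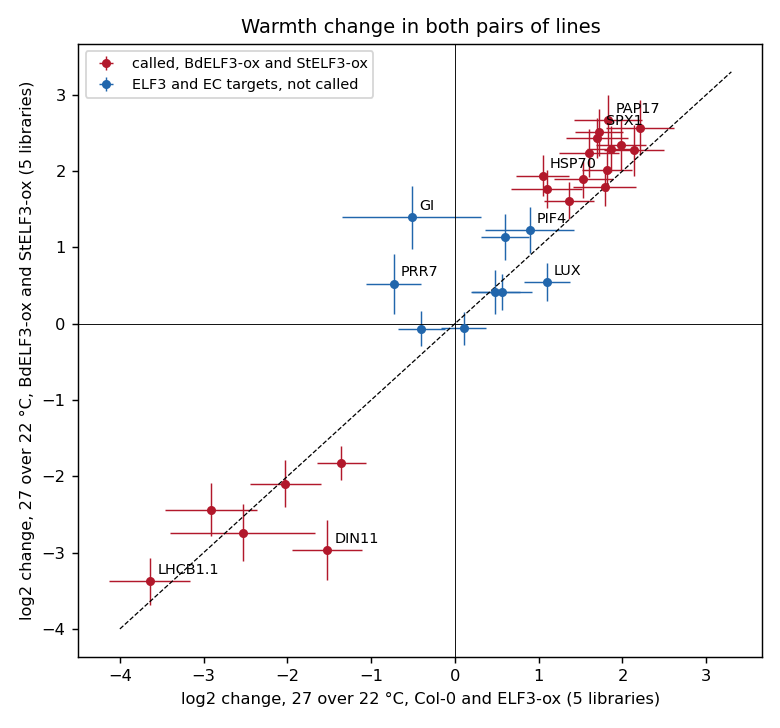
Log2 change between 27 and 22 °C in BdELF3-ox and StELF3-ox (y axis) against that in Col-0 and ELF3-ox (x axis) for the named genes, with SE bars from 5 libraries per axis and a dashed line of equality. Called loci, in red, lie in the same quadrant for both pairs. GI and PRR7 lie above 0 on the y axis and below 0 on the x axis, at -0.52 and -0.73. Of the lines fitted, ELF3-ox alone fell for GI, and StELF3-ox alone rose for PRR7.

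Among the EC targets, PRR7 and GI had the widest gaps between the pairs of lines. GI fell only in ELF3-ox and rose in both Col-0 27C libraries, as it did in BdELF3-ox and StELF3-ox. PRR7 was at 8.37 CPM in Col-0 22C, 4.17 and 6.50 CPM at 27 °C, and 5.79 and 3.13 CPM in ELF3-ox. Its difference in response was 1.22 ± 0.57 (log2, SE, unadjusted p = 0.0558, adjusted p = 1, edgeR). Of the kept warm libraries of the 2 lines, StELF3-ox 27C alone was above its 22 °C library. The library left out, BdELF3-ox 27C replicate 2, was above its own as well, at 25.6 CPM against 6.65 CPM. GI was at 0.728, 1.34 and 2.50 CPM in Col-0 and 3.71 and 0.671 CPM in ELF3-ox (difference 1.90 ± 1.05, adjusted p = 1, edgeR). PIF4 was at 4.37, 10.7 and 21.8 CPM in Col-0 and at 8.56 and 7.38 CPM in ELF3-ox, and its difference from the pair was 0.32 ± 0.71. The median difference over the 8 EC targets was 0.12, beside 0.00 over all loci.

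Within 1 title prefix, a fit chosen after seeing the data compared the warmth response of the 4 libraries with that between Col-0 22C and Col-0 27C replicate 1. Higher and lower here refer to that response and not to the level. It called 70 loci, 55 higher and 15 lower in the 2 lines than in Col-0. Of these 70, 65 had the same sign in the 10-library fit and 16 had an unadjusted p under 0.05 there. At 18 all 3 changes lay beyond all 3 of Col-0 and ELF3-ox. These counts reuse the libraries that called the 70, so they are not a separate check, and the shares over all loci are not given. The locus called by DESeq2 in the 10 libraries was TSPO, a membrane protein induced by water stress and abscisic acid. It was at 11.4, 5.49 and 2.82 CPM in BdELF3-ox, 16.8 and 15.2 CPM in StELF3-ox, 7.88, 50.2 and 32.1 CPM in Col-0 and 7.97 and 23.4 CPM in ELF3-ox. In the 2 lines each warm library was below its 22 °C library, and in Col-0 and ELF3-ox each was above it.

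LEA7, a late embryogenesis protein, was among the 70 as well, at 6.99, 3.92 and 1.62 CPM in BdELF3-ox, 10.7 and 11.9 CPM in StELF3-ox, 10.2, 45.6 and 59.4 CPM in Col-0 and 11.7 and 18.7 CPM in ELF3-ox. So was EM6, a seed storage marker. The seed storage markers summed to 6.91 CPM in Col-0 22C and to 29.9 and 66.7 CPM in Col-0 27C, against 5.50 to 10.7 CPM in the 5 libraries, and in ELF3-ox to 26.8 and 16.3 CPM at 22 and 27 °C. The floral organ markers summed to 12.97 CPM in Col-0 22C and to 96.8 and 33.9 CPM in Col-0 27C, and in ELF3-ox to 9.45 and 42.8 CPM at 22 and 27 °C. The part of seed or floral tissue in these values was not tested.

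Between BdELF3-ox and StELF3-ox the warmth response differed at 0 (0%) of 18266 loci by edgeR's quasi-likelihood test, with 180 at an unadjusted p under 0.05, and at 0 by DESeq2. This test had 1 residual degree of freedom, the difference between the kept warm BdELF3-ox libraries. Their title prefixes differ, so the spread used here includes any difference between prefixes. By pooling the spread over loci, edgeR added 945.8 prior degrees of freedom. The intervals below count these too, so they are far narrower than 1 degree of freedom alone would give. Among ELF3, ELF4, the EC targets and the named called loci, PRR7 had the smallest p, with a response 1.82 lower in BdELF3-ox on the log2 scale (difference -1.82, 95% interval -3.27 to -0.37, unadjusted p = 0.0137, adjusted p = 1, edgeR). The heat shock list member AT1G53540, named above after its values were seen, differed by -2.81 (interval -4.41 to -1.22, adjusted p = 1, edgeR). PIF5 differed by -1.25 (interval -2.65 to 0.15). For COR15B the fall was smaller in BdELF3-ox by 1.40 (interval -0.10 to 2.89). For PIF4 the difference was -0.08 (interval -1.51 to 1.35) and for HSP70 0.44 (interval -1.01 to 1.89), and such intervals do not show that the lines responded alike.

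At 12 °C, with 1 library per line, the called loci can be read beside the warm change. SRG3 was at 7.46 CPM in BdELF3-ox and 3.88 CPM in StELF3-ox, below the 23.3 and 20.3 CPM at 22 °C. Hop3 was at 0.462 and 0.852 CPM, also below its 22 °C values. LHCB1.1 was at 28433 and 17949 CPM, above them. SPX1, at 5.29 and 3.79 CPM, was near its 22 °C level, and AT1G64500, at 142 and 37.3 CPM, was above it at 12 °C as well as at 27 °C. The 12 °C libraries carry the title prefix of BdELF3-ox 27C replicate 3. These values share the 22 °C libraries with the warm comparison and were not tested.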

How the data were processed

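RNA was measured by 3' end sequencing (QuantSeq FWD, NextSeq) of pooled seedlings. The deposited values are raw counts per TAIR10 locus, which the authors made from STAR alignments, per the submitters' processing notes. The sources used here do not name the counting tool. Each file held 32833 loci, and 99.1% matched a RefSeq gene table (assembly TAIR10.1) that gave symbols and neighbours. In the 5 libraries 2.39 to 3.00% of reads fell in no gene and 3.05 to 5.37% did not align uniquely, and these stayed out of all totals.

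Counts were tested in R 4.3.3 with edgeR 4.0.16 (TMM factors, quasi-likelihood test, Benjamini-Hochberg over all loci tested). The filter was 1 CPM or more in 2 or more libraries for warmth and for BdELF3-ox against StELF3-ox, and in 3 or more of 10 libraries for the difference from Col-0 and ELF3-ox. Residual degrees of freedom were 2, 1 and 4. CPM values were scaled with TMM over 13 libraries, and log2 CPM used a prior count of 2. Scripts were run on simulated counts with less spread between libraries than each main fit found, which checks the code and not the power in these data. Alternatives were DESeq2 1.42.0, other size factors and filters, left-out libraries, and a spread pooled over the RNA libraries. Levels are per library and not per length, so levels of different genes are not compared.

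Named genes were ELF3, ELF4, the EC targets, the called loci of highest and lowest consistency (up to 12 each, mean of at least 5 CPM) and up to 4 called members per list. The members, the 22 lists and the tests were chosen with earlier results of these data known. The ChIP files were not used here. No sequences are shown.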

Additional observations from a re-analysis of the deposited data

Results flagged for a closer look

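PRR7 moved in opposite directions in the kept libraries of the lines. Its log2 CPM change was 1.52 in StELF3-ox and -0.11 and -0.44 in BdELF3-ox replicates 1 and 3. In BdELF3-ox 27C replicate 2, the library left out, it was 1.92, so the BdELF3-ox libraries moved both ways. The difference between the lines missed the threshold over all loci, as given above. ELF4 and ELF3 also had opposite signs, at 0.012 and 0.010 in StELF3-ox, -0.11 and -0.12 for ELF4 and -0.06 and -0.17 for ELF3 in BdELF3-ox, all small beside their standard errors.

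TSPO was called by DESeq2 for a lower response in BdELF3-ox and StELF3-ox than in Col-0 and ELF3-ox, at a log2 difference of -2.92 ± 0.58 (SE, adjusted p = 0.0106, DESeq2), while edgeR's adjusted p was 1. It was chosen after its values were seen.

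BdELF3-ox 27C replicate 2, which no main comparison used, had 2 lists whose summed level was at least 2-fold that of the highest library kept. Its jasmonate genes summed to 1339 CPM against 206 to 285 CPM, and its salicylic acid defence genes to 215 CPM against 75.8 to 83.6 CPM. Smaller excesses were found in other lists, such as EC targets and PIF and auxin growth, while root markers and heat shock genes summed lower than in each library kept. The cause was not tested.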

How the results depend on the processing

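The counts of called loci moved with most settings, and 17 higher and 6 lower is near the low end of them. Leaving out 1 library gave 10 to 921 higher and 5 to 818 lower. Adding back BdELF3-ox 27C replicate 2 gave 0 and 0. No filter gave 185 and 149, DESeq2 60 and 34 with 3896 loci without an adjusted p, and the spread pooled over all RNA libraries 68 and 48. These kept 23, 22 and 19 of the 23. RLE size factors left both counts as they were, and 1 CPM in 3 libraries gave 17 and 5. Why the counts moved was not tested.

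Loci changed at least 2-fold in all 3 differences numbered 121 up and 69 down. Alternatives chosen after seeing the data gave 73 and 33 with replicate 2 added back, and 191 to 205 up and 115 to 164 down with 1 BdELF3-ox 27C replicate left out. Downward loci numbered 110 with no filter and 43 with 1 CPM in 3 libraries.

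The difference from Col-0 and ELF3-ox stayed at 0 calls in each fit except no filter and DESeq2, with 1 each (TSPO in both), and the 1-prefix fit with Col-0 alone, with 70. No called named gene changed direction in its alternatives. Of the others, the ELF3 log2 warmth change ranged from -0.12 to 0.0035 with 1 library left out and was at 0.020 with the pooled spread. The ELF4 log2 warmth change ranged from -0.12 to 0.0055 and was at 0.090 with replicate 2. The PRR7 log2 warmth change ranged from -0.29 to 1.53. No paired analysis was possible because the labels number no replicates shared between groups. Testing BdELF3-ox against StELF3-ox with 1 BdELF3-ox 27C replicate leaves no residual degrees of freedom.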
